A study of Homo sapiens with 36 samples.

Results

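The genes described here are 10 regulators of the passage from G1 into S phase: the D-type cyclins CCND1 and CCND3, their kinases CDK4 and CDK6, the E-type cyclins CCNE1 and CCNE2, their kinase CDK2, the inhibitor CDKN1B, the transcription factor E2F1 and the retinoblastoma gene RB1. They were taken by symbol from both deposited tables, and all 10 were present in each, of 13364 genes in the first table and 13066 in the second. The samples were 36 libraries of transcript 3' ends from the established human melanoma lines 501mel and IGR37, grown in RPMI with 10% fetal bovine serum and collected at 48 h. Each line had 6 groups of 3 libraries. These were DMSO, the stearoyl-CoA desaturase (SCD) inhibitor labelled A93 at 1 uM (SCDi), and 2 groups of control siRNA (siCTR_1 and siCTR). The other 2 groups had siRNA against SCD (siSCD_1 and siSCD_2), and each siRNA was at 20 nM. The comparisons ask which G1 genes change under the inhibitor or the siRNAs, and whether this differs by line.

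In G1, D-type cyclins bind CDK4 or CDK6 and begin to phosphorylate RB1, which in its unphosphorylated form holds E2F factors in check. Freed E2F factors turn on CCNE1, CCNE2, E2F1 itself and the genes of DNA replication, and cyclin E with CDK2 completes the phosphorylation of RB1. CDKN1B, known as p27, binds cyclin E with CDK2 and blocks it, and in pigment cells both CDK2 and CCND1 are known to be tied to the lineage and its growth signals.

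Values are log2 CPM, read counts scaled to library size, and are levels per library not scaled by transcript length, so levels were compared within a gene only. Changes are differences of log2 CPM, treated minus control, with the standard error (SE) from limma, and a gene was called at an adjusted p under 0.05 over all genes of its table. The tables were normalised separately: the first held DMSO, SCDi, siCTR and siSCD_2, the second siCTR_1 and siSCD_1, and tests stayed within a table. Nothing in the labels tells whether the libraries of a group came from separate cultures, and the p-values reflect library to library spread, which may be technical. In bulk RNA, fewer cells in a phase of the cycle and less transcript per cell cannot be told apart.

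Gene reads per library ran from 4078450 to 6685898 among the libraries of the first table and from 2402788 to 7483010 among those of the second. SCD fell with both siRNAs in both lines, by 2.85 and 4.33 in 501mel and by 2.67 and 4.15 in IGR37 on the log2 scale, with siSCD_1 and siSCD_2 in that order. With SCDi, SCD rose in IGR37 (log2 change 0.63 ± 0.16 SE, adjusted p = 0.00215) and was at 0.29 ± 0.16 in 501mel (adjusted p = 0.573). The 3 IGR37 siSCD_2 libraries lay apart from each other, with SCD at 6.52, 5.32 and 6.09 log2 CPM. The limma SE pools the spread of all groups of a table, so it need not match that of a single group. In IGR37 siSCD_2 the standard deviation was 0.59 for CCND1, 0.42 for CDK2, 0.08 for CCND3 and 0.06 for RB1. The largest in any other group of the first table was 0.28, 0.09, 0.10 and 0.19, in that order. MITF, the master transcription factor of melanocytes, fell in every comparison other than SCDi in 501mel, by 0.33 to 1.13 on the log2 scale. The summed level of the 8 melanocytic markers was 3004 to 7004 CPM over all libraries, and the measured markers of blood, fibroblast, endothelial and epithelial cells summed to at most 90.1, 19.7, 5.19 and 5.42 CPM. Of those lists, 1 of 4, 3 of 6, 2 of 3 and 1 of 4 genes were listed in the first table, with 1 of 6 fibroblast genes in the second.

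The inhibitor left the 10 genes within the threshold in 501mel and moved 9 of them in IGR37. In 501mel 0 genes rose and 0 fell with SCDi, where 0.232% of all genes rose and 0.0599% fell. Of the 10, CDK4 and CCNE1 had an unadjusted p under 0.05 in that comparison (0.0163 and 0.0318). In IGR37 SCDi lowered 8 and raised 1, against 23.1% of all genes lower and 20.9% higher. With siSCD_1, 6 fell and 2 rose in 501mel (22% and 20.9% of all genes), and 5 fell and 1 rose in IGR37 (19.4% and 16.7%). With siSCD_2, 7 fell and 1 rose in 501mel (19.5% and 18.3%), and 5 fell and 3 rose in IGR37 (22.7% and 23.2%). The median change of the 10 was -0.06 with SCDi in 501mel and -0.92 in IGR37, -0.54 and -0.35 with siSCD_1, and -0.66 and -0.47 with siSCD_2, beside medians over all genes of 0.00, 0.00, 0.01, -0.01, 0.00 and 0.00. CCND3, CDK2 and E2F1 fell in 5 of the 6 comparisons, CCNE1 and CDK4 in 4 and CCNE2 in 3. CDKN1B rose in 3 and fell in 0, and CCND1, CDK6 and RB1 each rose in some comparisons and fell in others.

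**Figure D1:**
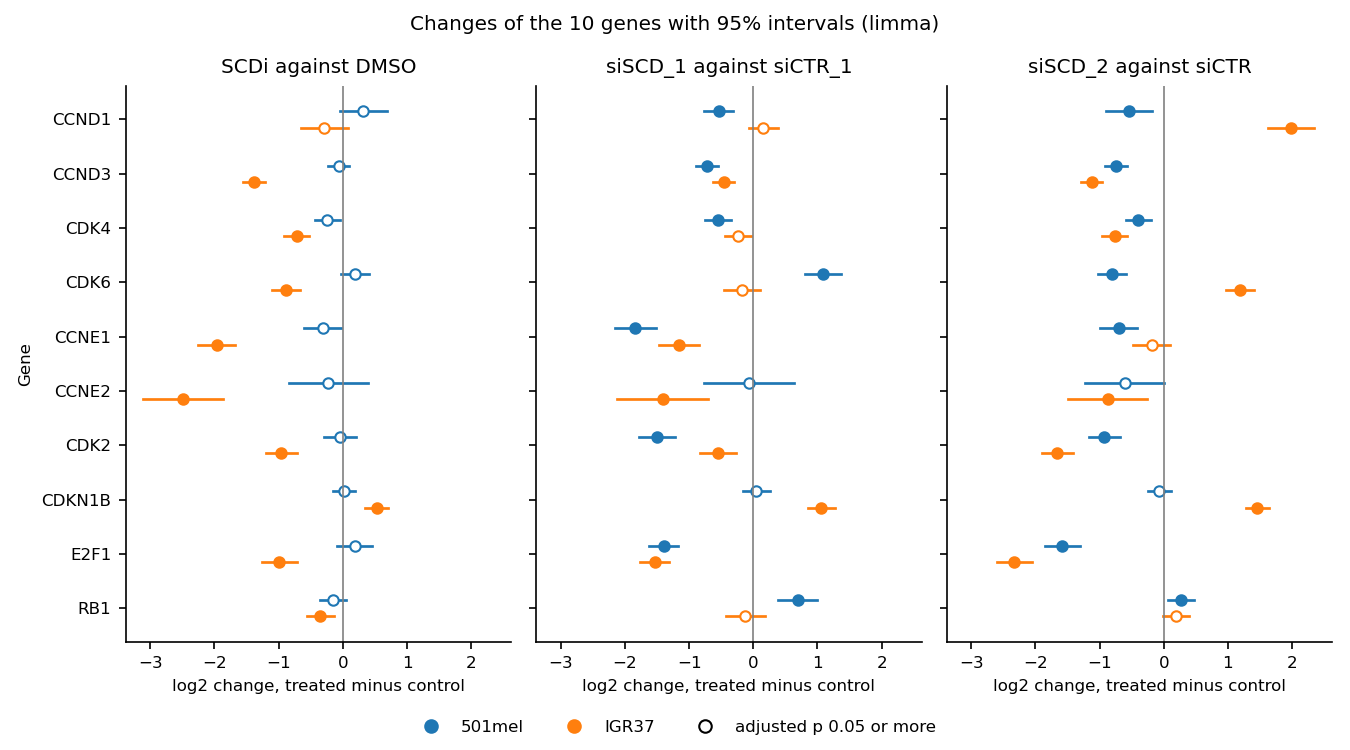
Change of each of the 10 genes (rows) on the log2 scale, treated minus control, for the 3 treatments (panels) in 501mel (blue) and IGR37 (orange). Points are limma estimates from 3 libraries a group, bars are 95% intervals and open points have an adjusted p of 0.05 or more. With SCDi all 10 points of 501mel are open, and E2F1 lies left of 0 in the other 5 comparisons.

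CCND1 (ENSG00000110092.3, GRCh38 chr11:69641087-69654474, plus strand) encodes cyclin D1, the cyclin through which growth signals reach CDK4 and CDK6. In 501mel it fell with both siRNAs. Its levels were 8.41, 8.55 and 8.53 log2 CPM with siCTR_1 and 7.72, 8.0 and 8.16 with siSCD_1. The siSCD_1 libraries were all below the controls (log2 change -0.54 ± 0.11 SE, adjusted p = 0.000661). With siCTR it was at 8.78, 9.06 and 9.35 and with siSCD_2 at 8.71, 8.38 and 8.47, again without overlap, though the highest siSCD_2 library lay close to the lowest control (-0.54 ± 0.18, adjusted p = 0.0164). That call was lost without siCTR replicate 3 (-0.40, adjusted p = 0.111), without siSCD_2 replicate 2 (adjusted p = 0.0715) and without siSCD_2 replicate 3 (adjusted p = 0.0503).

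In IGR37 the same gene rose with siSCD_2. CCND1 was at 6.22, 6.42 and 6.52 log2 CPM with siCTR and at 8.69, 7.69 and 8.74 with siSCD_2, a log2 change of 1.99 ± 0.18 (adjusted p = 1.22e-09), or 3.97-fold. Every siSCD_2 library was above every siCTR library, and the lowest of the 3 was also the one with the least SCD. The DMSO libraries of IGR37, in the same table, stood at 7.67, 7.56 and 7.72, all above siCTR and overlapping siSCD_2 at its lowest library. Measured from DMSO, the mean of siSCD_2 was higher by 0.72 and that of siCTR was lower by 1.26 on the log2 scale; neither difference was tested. With siSCD_1 CCND1 in IGR37 was at 7.35, 7.14 and 7.22 against 6.91, 7.11 and 7.22, with overlapping groups (0.16 ± 0.11, adjusted p = 0.276). SCDi gave 7.51, 7.30 and 7.29 in IGR37, all below DMSO yet short of the threshold (-0.29 ± 0.18, adjusted p = 0.193), and 9.53, 9.66 and 9.61 in 501mel against 9.32, 9.14 and 9.37 (0.32 ± 0.18, adjusted p = 0.581). With only the compared groups in the fit, the SCDi difference in IGR37 passed (adjusted p = 0.0192). CCND1 shares 1399 bases with LTO1 on the opposite strand, measured here under its older symbol ORAOV1. ORAOV1 rose with siSCD_1 in 501mel (1.05 ± 0.13, adjusted p = 7.3e-06). In IGR37 it rose with SCDi (0.75 ± 0.20, adjusted p = 0.00268), siSCD_1 (0.76 ± 0.13, adjusted p = 0.000216) and siSCD_2 (0.60 ± 0.20, adjusted p = 0.0133). It was not called with SCDi or siSCD_2 in 501mel. The part of this overlap in the CCND1 values was not tested.

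CCND3 (ENSG00000112576.12, chr6:41934933-42050357, minus strand), which encodes cyclin D3, fell in every comparison other than SCDi in 501mel. Its largest fall was with SCDi in IGR37, from 7.05, 6.92 and 6.99 log2 CPM under DMSO to 5.51, 5.70 and 5.59. The groups were far apart (-1.39 ± 0.08, adjusted p = 8.78e-13). With siSCD_2 it fell from 6.82, 7.0 and 6.91 to 5.86, 5.79 and 5.70 in IGR37 (-1.12 ± 0.08, adjusted p = 4.26e-11), and from 7.03, 6.98 and 7.08 to 6.40, 6.19 and 6.28 in 501mel (-0.74 ± 0.08, adjusted p = 8.39e-08). With siSCD_1 it fell by 0.72 ± 0.08 in 501mel (adjusted p = 2.17e-06) and by 0.46 ± 0.08 in IGR37 (adjusted p = 0.000234). No library of a treated group reached its controls in these 5 comparisons. With SCDi in 501mel the groups overlapped, at 7.0, 7.04 and 6.89 against 7.13, 6.96 and 7.04 (-0.06, 95% interval -0.23 to 0.10). Among the groups of the first table, the means other than IGR37 SCDi (5.60), IGR37 siSCD_2 (5.79) and 501mel siSCD_2 (6.29) could not be put in order beyond their spread, lying between 6.91 and 7.04.

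CDK4 (ENSG00000135446.16, chr12:57747727-57756013, minus strand) encodes the kinase partner of the D cyclins. RefSeq lists the 250 bases before its start, at chr12:57752311-57752560 on the minus strand of GRCh38.p14. They are shown because they hold matches to the E-box, the word that MITF binds. Capitals mark the 4 matches to the E-box words CACGTG and CATGTG on either strand, the last reading CACATG.
CDK4 promoter: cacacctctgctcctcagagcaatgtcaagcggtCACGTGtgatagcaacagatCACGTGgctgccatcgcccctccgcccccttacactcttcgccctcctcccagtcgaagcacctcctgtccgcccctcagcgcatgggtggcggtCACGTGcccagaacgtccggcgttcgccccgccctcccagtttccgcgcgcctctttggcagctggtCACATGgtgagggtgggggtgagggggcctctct
The matches begin at positions -216 to -34 from the start site. Such a window held at least 1 E-box word in 14.2% of 10066 promoters of measured genes, and in 15.2% of all 35116 listed. Of the 7 members with a listed promoter (CCND3, CCNE1, CDK4, CDK6, CDKN1B, E2F1 and RB1), CDK4 was the one with a match. A match describes these letters and does not show that a factor was bound. CCND3 and E2F1, without a match, fell in the same 5 comparisons as MITF, and CDK4 fell in 4 of them. A link between MITF and CDK4 was not tested.

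CDK4 fell with both siRNAs in 501mel and with SCDi and siSCD_2 in IGR37. In 501mel its levels were 8.44, 8.27 and 8.26 log2 CPM with siCTR_1 against 7.87, 7.80 and 7.68 with siSCD_1 (-0.54 ± 0.10, adjusted p = 0.000262), and 7.82, 7.89 and 7.66 with siCTR against 7.55, 7.48 and 7.16 with siSCD_2 (-0.40 ± 0.09, adjusted p = 0.00154). With only the compared groups in the fit, the siSCD_2 difference missed the threshold (adjusted p = 0.0529). In IGR37 it was at 7.47, 7.5 and 7.38 under DMSO against 6.79, 6.69 and 6.72 with SCDi (-0.72 ± 0.09, adjusted p = 8.1e-07). With siSCD_2 it went from 7.57, 7.64 and 7.59 to 6.85, 7.01 and 6.65 (-0.76 ± 0.09, adjusted p = 3.59e-07). Groups did not overlap in any of these. With siSCD_1 in IGR37 1 library of 3, at 7.68, lay among the controls (-0.24 ± 0.10, adjusted p = 0.0612), and without that library, replicate 2, the difference passed (-0.37, adjusted p = 0.00166). CDK4 shares 2485 bases with TSPAN31 on the opposite strand, and whether the authors' counting used strand is not given in the sources used here. TSPAN31 was not called in any of the 6 comparisons (adjusted p 0.074 to 0.956).

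CDK6 (ENSG00000105810.9, chr7:92604921-92836594, minus strand) encodes the other kinase of the D cyclins and did not follow CDK4. In 501mel it rose with siSCD_1, from 4.71, 5.24 and 5.23 log2 CPM to 6.06, 6.07 and 6.30 (1.08 ± 0.13, adjusted p = 8.67e-06), and fell with siSCD_2, from 6.0, 6.08 and 5.92 to 5.09, 5.25 and 5.25 (-0.80 ± 0.11, adjusted p = 1.51e-06). Neither pair of groups overlapped, so siRNAs against the same mRNA went with opposite changes of CDK6 in 1 line, each against its own control. The difference between the siRNAs was not tested because their tables were normalised separately. In IGR37 CDK6 fell with SCDi, from 6.49, 6.62 and 6.53 to 5.85, 5.61 and 5.53 (-0.88 ± 0.11, adjusted p = 2.34e-07), and was not called with siSCD_1 (-0.17 ± 0.13, adjusted p = 0.347). With siSCD_2 it rose against siCTR, from 5.29, 5.10 and 5.09 to 6.41, 6.13 and 6.50 (1.18 ± 0.11, adjusted p = 1.94e-09). As with CCND1, the IGR37 siCTR libraries of CDK6 were all below DMSO, by 1.38 on average, and siSCD_2 overlapped DMSO, its mean lower by 0.20. In 501mel the order was the other way, with siCTR above DMSO by 0.72 and siSCD_2 overlapping DMSO.

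**Figure D2:**
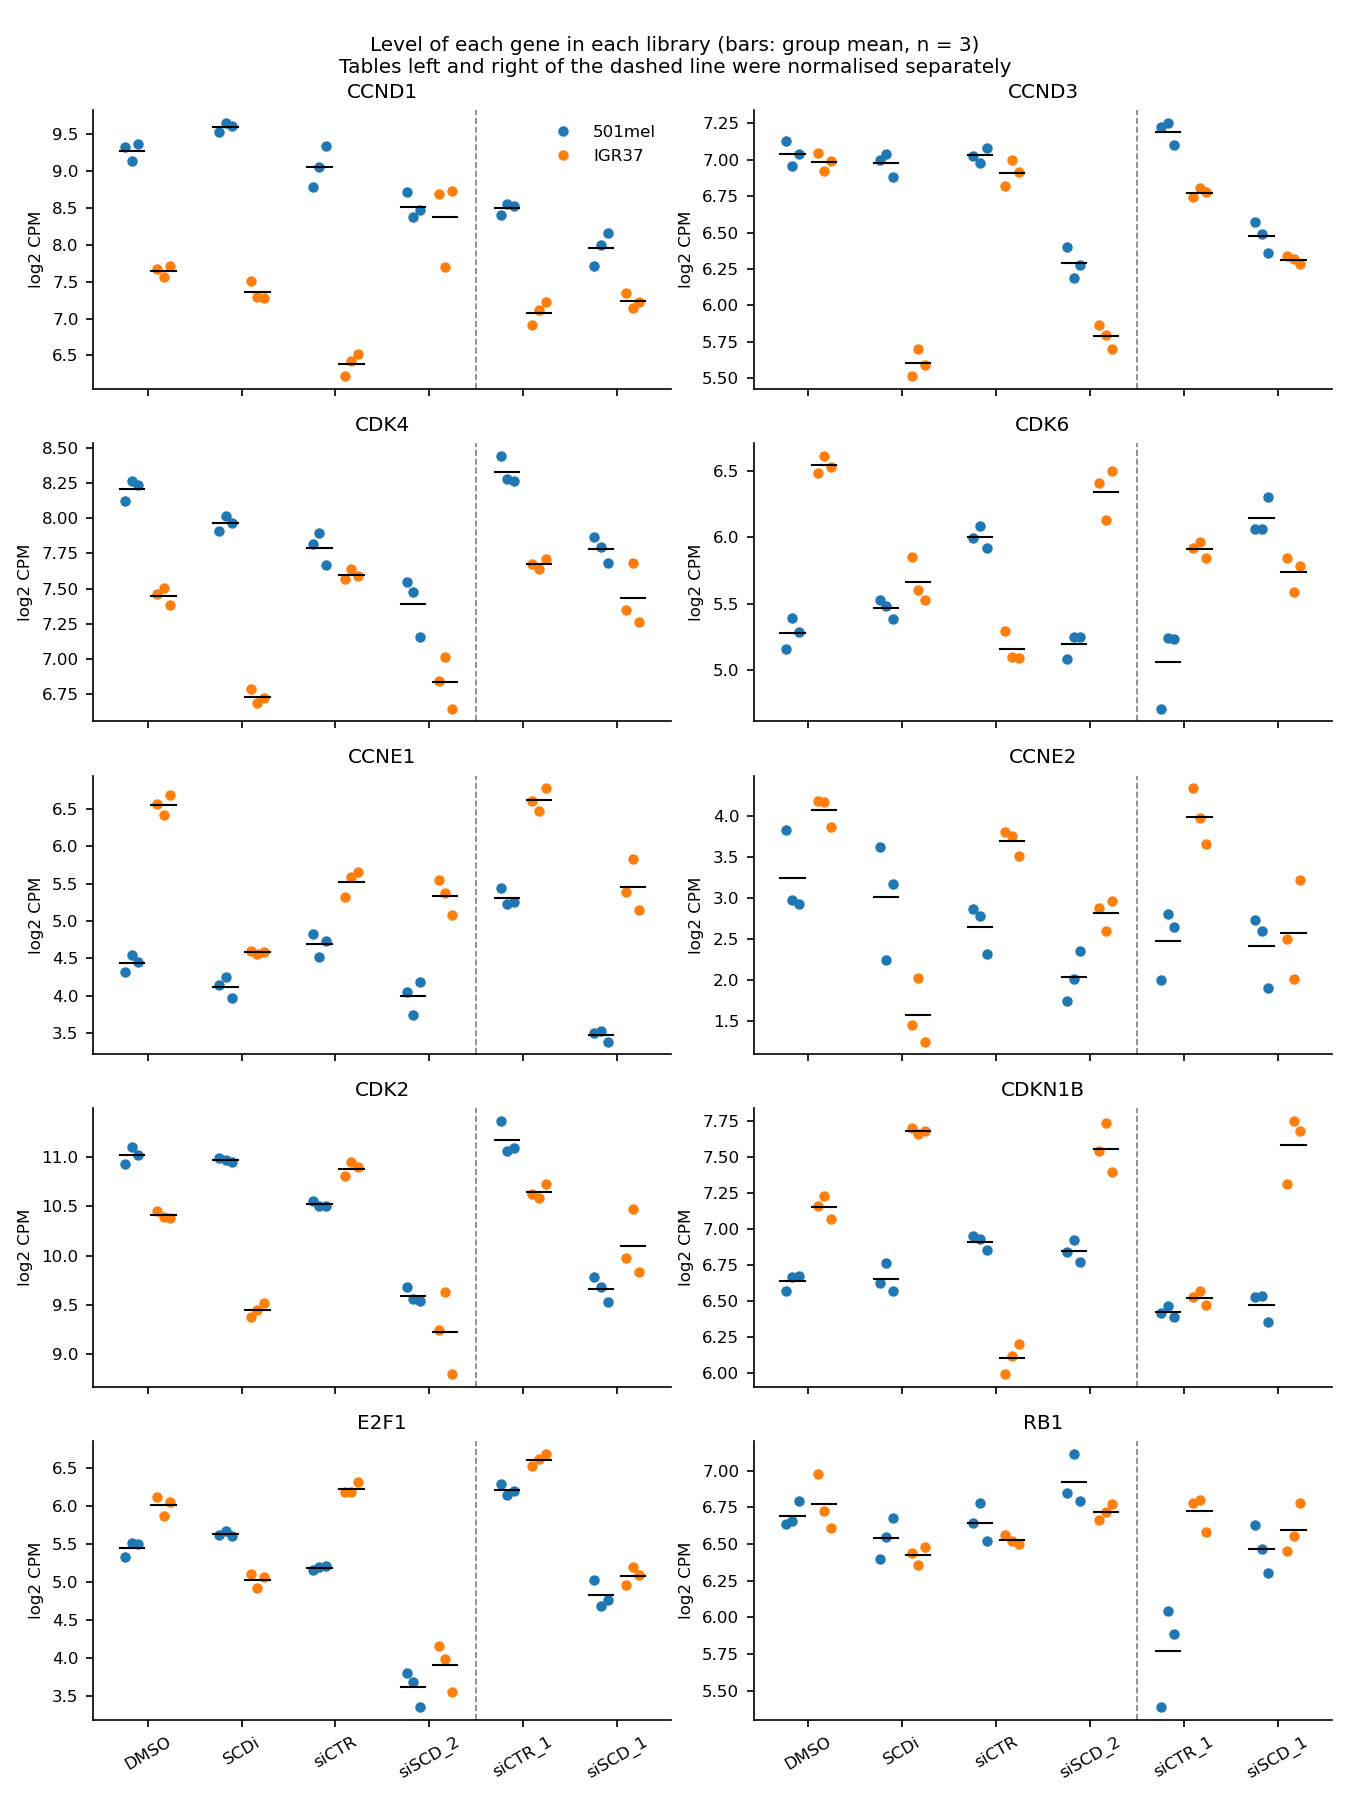
Level (log2 CPM, vertical axis) of each gene in each library of 501mel (blue) and IGR37 (orange), by treatment (horizontal axis); black bars are means of 3 libraries, and groups right of the dashed line come from the second table, normalised separately. In IGR37, CCND1, CDK6 and CDKN1B are lower with siCTR than with DMSO, and CCNE1 is near 6.5 under DMSO and siCTR_1.

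CCNE1 (ENSG00000105173.13, chr19:29811898-29824308, plus strand) encodes cyclin E1, which is rate-limiting for CDK2 activity at the end of G1. It fell in 4 comparisons. In IGR37 SCDi lowered it from 6.56, 6.41 and 6.68 log2 CPM to 4.60, 4.56 and 4.59, the 3 treated libraries being almost equal (-1.97 ± 0.14, adjusted p = 2.11e-11; 3.91-fold lower). In 501mel siSCD_1 lowered it from 5.44, 5.23 and 5.25 to 3.5, 3.53 and 3.39 (-1.84 ± 0.15, adjusted p = 1.04e-07), which is 34 to 42 reads a library against 154 to 243. With siSCD_2 in 501mel it went from 4.83, 4.52 and 4.73 to 4.06, 3.74 and 4.18 (-0.70 ± 0.14, adjusted p = 0.000249), and with siSCD_1 in IGR37 from 6.61, 6.46 and 6.77 to 5.39, 5.83 and 5.15 (-1.16 ± 0.15, adjusted p = 1.67e-05). With siSCD_2 in IGR37 the groups overlapped, at 5.55, 5.38 and 5.07 against 5.32, 5.58 and 5.66 with siCTR (-0.19 ± 0.14, adjusted p = 0.285). Those siCTR libraries were all below the DMSO ones, by 1.03 on average, and siSCD_2 was below DMSO by 1.22. With SCDi in 501mel the 3 libraries, at 4.14, 4.25 and 3.97, were below the DMSO ones at 4.32, 4.54 and 4.45, yet the adjusted p was 0.445.

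CCNE2 (ENSG00000175305.17, chr8:94879770-94896678, minus strand), the gene of cyclin E2, was the least deeply covered of the 10, with 10 to 102 reads a library, and had the widest spread. In IGR37 it fell with each treatment. SCDi took it from 4.18, 4.16 and 3.86 log2 CPM to 1.46, 2.03 and 1.25 (-2.49 ± 0.30, adjusted p = 2.09e-07), the largest fall of any of the 10 genes in the 6 comparisons, on 11 to 22 treated reads a library. With siSCD_1 it went from 4.33, 3.98 and 3.65 to 2.50, 2.01 and 3.21 (-1.41 ± 0.33, adjusted p = 0.00344). With siSCD_2 it went from 3.80, 3.75 and 3.51 to 2.88, 2.60 and 2.96 (-0.88 ± 0.30, adjusted p = 0.019). The siSCD_2 call was lost without siCTR replicate 1 (adjusted p = 0.0579), siCTR replicate 2 (0.053) or siSCD_2 replicate 2 (0.0612). In 501mel CCNE2 was not called with SCDi (-0.23, -0.85 to 0.39), siSCD_1 (-0.07, -0.77 to 0.64) or siSCD_2 (-0.61, -1.23 to 0.01) (95% intervals in each case), and the last interval includes the change seen with siSCD_2 in IGR37. CCNE2 shares 1977 bases with INTS8 on the opposite strand, and INTS8 was not called in any of the 6 comparisons (adjusted p 0.0642 to 0.984).

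CDK2 (ENSG00000123374.10, chr12:55966769-55972784, plus strand) encodes the kinase of the E cyclins, and it fell in every comparison other than SCDi in 501mel. With siSCD_2 in IGR37 it went from 10.81, 10.94 and 10.89 log2 CPM to 9.24, 9.63 and 8.80 (-1.66 ± 0.12, adjusted p = 3.1e-11). With siSCD_1 in 501mel it went from 11.36, 11.06 and 11.09 to 9.78, 9.68 and 9.53 (-1.50 ± 0.13, adjusted p = 2.18e-07). These falls were 3.15-fold and 2.83-fold, with no overlap of libraries. It also fell with SCDi in IGR37, from 10.45, 10.39 and 10.39 to 9.38, 9.45 and 9.52 (-0.96 ± 0.12, adjusted p = 3.18e-07), and with siSCD_2 in 501mel, from 10.56, 10.50 and 10.50 to 9.68, 9.56 and 9.54 (-0.92 ± 0.12, adjusted p = 8.39e-07). The smallest fall was with siSCD_1 in IGR37, where 1 library at 10.48 lay just under the lowest control at 10.58 (-0.55 ± 0.13, adjusted p = 0.00356). With SCDi in 501mel the levels were 10.98, 10.97 and 10.95 against 10.92, 11.10 and 11.02 (-0.05, 95% interval -0.29 to 0.20). GENCODE 29 places CDK2 wholly inside the span of PMEL, a melanosome gene on the opposite strand, with the 3' ends 18679 bases apart. PMEL fell with siSCD_1 in 501mel (-0.56 ± 0.06, adjusted p = 1.06e-06) and siSCD_2 in IGR37 (-0.82 ± 0.08, adjusted p = 6.91e-09) and was not called in the other 4 comparisons, among them 3 in which CDK2 fell.

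CDKN1B (ENSG00000111276.10, chr12:12715058-12722371, plus strand), the gene of p27, rose with each treatment in IGR37 and with none in 501mel. In IGR37 its levels were 7.16, 7.23 and 7.07 log2 CPM under DMSO and 7.70, 7.66 and 7.68 with SCDi (0.53 ± 0.09, adjusted p = 1.55e-05). They were 6.53, 6.57 and 6.47 with siCTR_1 and 7.31, 7.75 and 7.68 with siSCD_1 (1.06 ± 0.10, adjusted p = 8.01e-07), and 5.99, 6.11 and 6.20 with siCTR and 7.54, 7.73 and 7.39 with siSCD_2 (1.46 ± 0.09, adjusted p = 8.23e-13). Treated libraries were all above their controls, by 1.44-fold, 2.08-fold and 2.74-fold on average. The siCTR libraries of IGR37 lay 1.05 below the DMSO ones on average, and siSCD_2 lay 0.40 above DMSO, also without overlap, so siSCD_2 was the higher against either control. SCDi and siSCD_2 overlapped in level. With any 1 siSCD_2 or siCTR library of IGR37 left out, the siSCD_2 change ran from 1.37 to 1.54 for CDKN1B, 1.81 to 2.33 for CCND1 and 1.11 to 1.29 for CDK6, each still called. In 501mel the 3 changes were 0.02, 0.05 and -0.07, with 95% intervals from -0.16 to 0.19, -0.16 to 0.26 and -0.24 to 0.11, and every pair of groups overlapped.

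E2F1 (ENSG00000101412.12, chr20:33675683-33686404, minus strand) encodes the E2F factor that RB1 restrains and that activates its own promoter. The 250 bases before its start in RefSeq, chr20:33686386-33686635 on the minus strand of GRCh38.p14, are shown because they hold matches to E2F words. Capitals mark matches to the E2F words TTTGGCGC, TTTGCCGC, TTTCGCGC and TTTCCCGC on either strand.
E2F1 promoter: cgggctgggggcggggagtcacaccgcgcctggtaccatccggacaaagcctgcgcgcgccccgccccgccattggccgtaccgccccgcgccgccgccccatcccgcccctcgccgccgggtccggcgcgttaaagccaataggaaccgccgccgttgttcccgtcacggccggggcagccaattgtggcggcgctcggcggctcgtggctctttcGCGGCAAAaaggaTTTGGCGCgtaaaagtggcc
The 2 matches begin at positions -33 and -20 from the start site. A match was found in 4.47% of the 10066 promoters of measured genes and in 2.79% of all 35116, and in none of the other 6 members with a listed promoter. These letters do not show that a factor was bound. The part of E2F factors in the changes of E2F1 was not tested.

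E2F1 had the largest root mean square change of the 10, at 1.49 over the 6 comparisons. In 501mel it fell with siSCD_1 from 6.30, 6.15 and 6.20 log2 CPM to 5.03, 4.69 and 4.76 (-1.39 ± 0.11, adjusted p = 6.11e-08), and with siSCD_2 from 5.16, 5.19 and 5.21 to 3.80, 3.68 and 3.35 (-1.58 ± 0.13, adjusted p = 6.44e-10). In IGR37 it fell with SCDi from 6.13, 5.87 and 6.05 to 5.11, 4.92 and 5.06 (-0.99 ± 0.13, adjusted p = 9.52e-07), and with siSCD_1 from 6.53, 6.63 and 6.69 to 4.95, 5.19 and 5.09 (-1.54 ± 0.11, adjusted p = 2.82e-08). With siSCD_2 in IGR37 it fell from 6.18, 6.19 and 6.32 to 4.16, 3.99 and 3.55 (-2.33 ± 0.13, adjusted p = 4.55e-13), or 5.03-fold, to 66 to 95 reads a library. In each case the treated libraries were well clear of the controls. With SCDi in 501mel the 3 libraries, at 5.62, 5.67 and 5.61, were above the DMSO ones at 5.33, 5.52 and 5.50, with a change of 0.18 ± 0.13 that was not called (adjusted p = 0.701).

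Genes with the word GCTTCCT in the 3' untranslated region had lower median changes with siSCD_1 than genes without it, -0.12 against 0.03 in 501mel and -0.09 against 0.00 in IGR37, where 2221 of 11536 genes (19.3%) held it in the longest annotated region. With siSCD_2 the medians were 0.01 against -0.01 in 501mel and 0.01 against 0.00 in IGR37. A related word, CTTCCTA, was held by 1633 genes (14.2%), with medians of -0.01 against 0.01 in 501mel and -0.06 against -0.01 in IGR37 for siSCD_1, and of 0.02 against -0.01 and 0.05 against 0.00 for siSCD_2. CCND1, CCNE2, CDK2, CDK6 and E2F1 held CTTCCTA. Both words had come out of earlier work on these data, so these medians are not independent of that choice and are no test of the words. The siRNA sequence is not given in the sources used here. E2F1 and CDK6 were the members that held GCTTCCT, and their sites are shown, with the word in capitals, because the genes moved in opposite directions with siSCD_1 in 501mel.
E2F1 site, chr20:33675723-33675751, minus strand, 992 bases into 1049: cactttgatttGCTTCCTaacagctctgt
CDK6 site, chr7:92611489-92611517, minus strand, 3634 bases into 10219: aaattatgtaaGCTTCCTaatatcataaa
Both positions are GRCh38 and GENCODE 29. E2F1 also fell with siSCD_2 in both lines and with SCDi in IGR37. The part of these sites in the siSCD_1 values was not tested.

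RB1 (ENSG00000139687.15, chr13:48303726-48599436, plus strand) moved least, with a root mean square change of 0.35. In 501mel it rose with siSCD_1, from 5.39, 6.04 and 5.89 log2 CPM to 6.63, 6.46 and 6.30 (0.69 ± 0.14, adjusted p = 0.00104); the first siCTR_1 library was low. With siSCD_2 it rose from 6.64, 6.78 and 6.52 to 6.85, 7.11 and 6.79 (0.27 ± 0.10, adjusted p = 0.0332), a gap that left the lowest treated library at 6.79 next to the highest control at 6.78. That call was lost without siCTR replicate 1 (adjusted p = 0.07), siCTR replicate 3 (0.155) or siSCD_2 replicate 2 (0.217), with no variance trend (0.0517) and with only the compared groups (0.114). In IGR37 RB1 fell with SCDi, from 6.98, 6.73 and 6.61 to 6.44, 6.36 and 6.48 (-0.35 ± 0.10, adjusted p = 0.00616). Without DMSO replicate 1, the highest library, it missed the threshold (-0.24, adjusted p = 0.0677). It was not called with siSCD_1 (-0.13, 95% interval -0.43 to 0.18) or siSCD_2 (0.19, -0.02 to 0.39) in IGR37.

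The effects of the inhibitor differed between the lines for 8 of the 10 genes. The test was of the change in IGR37 minus that in 501mel, and for SCDi 7 genes were lower and 1 higher, where 15.3% and 12.3% of all genes were. CCNE2 had the largest difference (-2.26 ± 0.42, adjusted p = 0.000241), followed by CCNE1 (-1.65 ± 0.20, adjusted p = 6.99e-07), CCND3 (-1.32 ± 0.12, adjusted p = 5.77e-09) and E2F1 (-1.17 ± 0.19, adjusted p = 3.24e-05). CCND1 (-0.61 ± 0.25, adjusted p = 0.07) and RB1 (-0.19 ± 0.14, adjusted p = 0.338) did not pass. For siSCD_1, 4 genes were higher and 2 lower in this difference, where 10% and 10.3% of all genes were. CDKN1B (1.01 ± 0.14, adjusted p = 0.000263) and CDK6 (-1.25 ± 0.19, adjusted p = 0.000411) led. For siSCD_2, 3 were higher and 3 lower, where 11.6% and 9.47% were, with CCND1 at 2.53 ± 0.25 (adjusted p = 5.67e-08), CDK6 at 1.99 ± 0.15 (adjusted p = 8.11e-10) and CDKN1B at 1.52 ± 0.12 (adjusted p = 1.6e-09). CDKN1B was the gene with a larger rise in IGR37 for all 3 treatments, and CDK6 passed for all 3 with the sign turned for siSCD_2. E2F1 did not pass for siSCD_1 (-0.15, 95% interval -0.47 to 0.18).

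**Figure D3:**
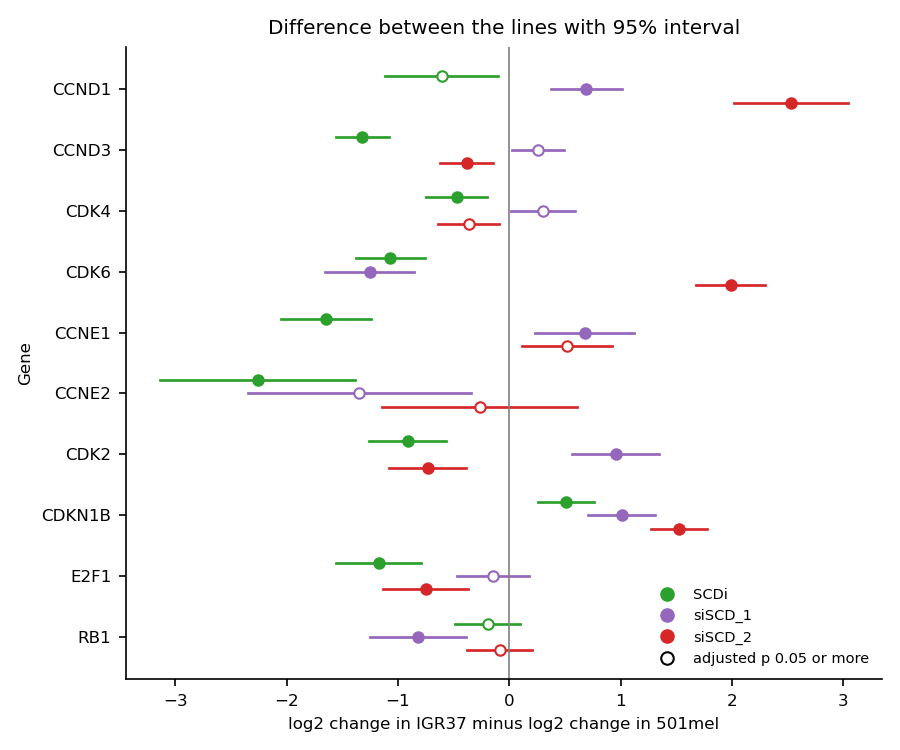
Log2 change in IGR37 minus log2 change in 501mel (horizontal axis) for each gene (rows) and treatment (colours), with 95% intervals from limma; open points have an adjusted p of 0.05 or more. CDKN1B lies right of 0 for all 3 treatments, and CCND1 and CDK6 with siSCD_2 lie farthest right, at 2.53 and 1.99.

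Under DMSO the lines differed in much of the transcriptome, and in 8 of these 10 genes. Of the 10, 5 were higher and 3 lower in IGR37 than in 501mel, where 31.1% and 29.7% of all genes were. The count is therefore not particular to the G1 genes. CCNE1 was higher by 2.11 ± 0.14 (adjusted p = 1.87e-12), CDK6 by 1.26 ± 0.11 (adjusted p = 2.4e-10), CCNE2 by 0.83 ± 0.30 (adjusted p = 0.0197), E2F1 by 0.57 ± 0.13 (adjusted p = 0.00061) and CDKN1B by 0.52 ± 0.09 (adjusted p = 1.04e-05). CCND1 was lower (-1.63 ± 0.18, adjusted p = 1.48e-08), as were CDK4 (-0.76 ± 0.09, adjusted p = 1.73e-07) and CDK2 (-0.60 ± 0.12, adjusted p = 9.94e-05). IGR37 thus held more mRNA of the E cyclins and less of cyclin D1 than 501mel. CCND3 (-0.06) and RB1 (0.08) overlapped between the lines. The CCNE2 difference lost its call when any of 4 DMSO libraries was left out (501mel replicates 2 and 3, IGR37 replicates 1 and 2; adjusted p 0.0573 to 0.0933).

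Of 21 S phase genes known as E2F targets, a list chosen with earlier results of these data known, 0 were called with SCDi in 501mel and 20 fell in IGR37. With siSCD_1, 13 fell in 501mel and 21 in IGR37, and with siSCD_2, 15 fell in 501mel and 16 in IGR37, where CDC6, a loader of the replicative helicase, rose (0.26). Median changes were -0.01, -1.05, -0.44, -0.91, -0.43 and -0.62 in that order. Of all genes, 0.232% rose and 0.0599% fell with SCDi in 501mel, so 0 of 21 there lay near the share. In the other 5 comparisons 19.4% to 23.1% of all genes fell. MCM4, a helicase subunit, fell by 0.74, 0.77, 1.65, 1.36 and 1.01 on the log2 scale in the 5 comparisons (siSCD_1 and siSCD_2 in 501mel, then SCDi, siSCD_1 and siSCD_2 in IGR37). RRM2, a subunit of ribonucleotide reductase, fell with SCDi in IGR37 by 1.72 ± 0.07 (adjusted p = 1.98e-15), and CDT1, which licenses origins, fell with siSCD_2 in IGR37 by 1.70 ± 0.12 (adjusted p = 2.45e-11). E2F1 fell by more than the list's median in the 4 siRNA comparisons, and by about as much with SCDi in IGR37. The proliferation markers MKI67 and TOP2A were at -0.07 and -0.24 with SCDi in IGR37, of which TOP2A was called, and both fell with siSCD_1 and siSCD_2 there.

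**Figure D4:**
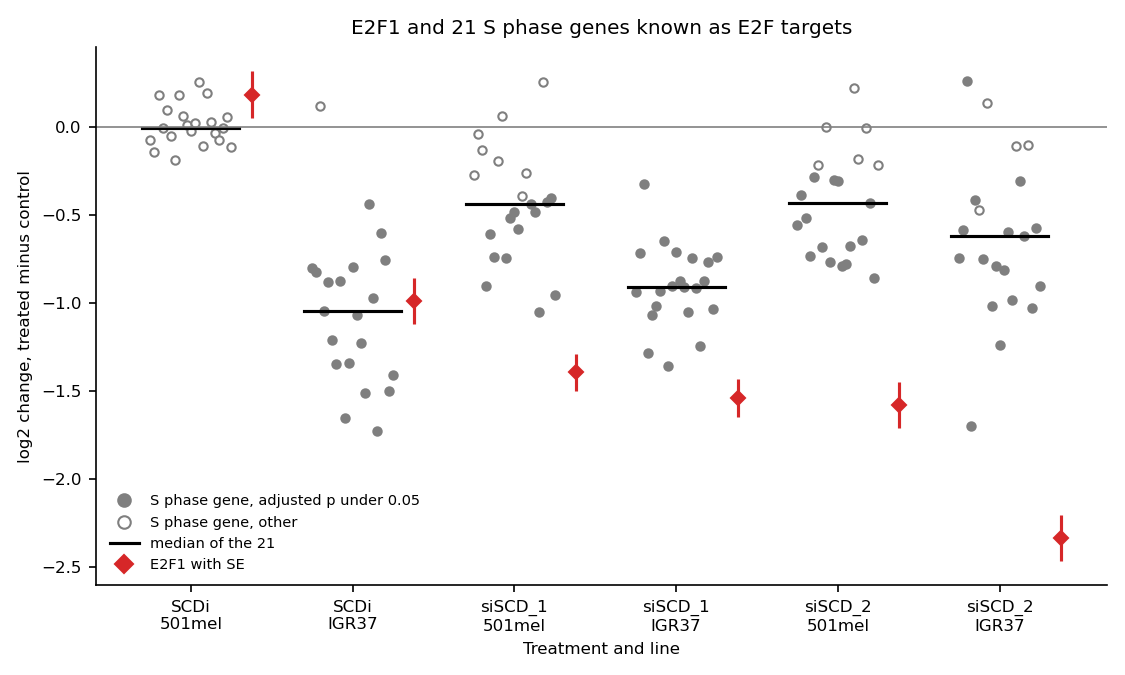
Log2 change, treated minus control (vertical axis), of 21 S phase genes (grey; open where the adjusted p was 0.05 or more) with their median (black line), beside E2F1 with its SE (red), for the 6 comparisons. The medians run from -0.01 with SCDi in 501mel to -1.05 with SCDi in IGR37, and E2F1 is lowest with siSCD_2 in IGR37, at -2.33.

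The other E2F, DP and pocket protein genes were mixed. Of 11, 0 were called with SCDi in 501mel, and 1 rose and 6 fell in IGR37. With siSCD_1, 3 rose and 4 fell in 501mel and 1 rose and 6 fell in IGR37, and with siSCD_2, 3 rose and 2 fell in 501mel and 2 rose and 1 fell in IGR37. Of all genes, 16.7% to 23.2% rose and 19.4% to 23.1% fell in the comparisons other than SCDi in 501mel, and several counts of this list and of the DREAM list lay near those shares. E2F2, another activating E2F, fell with SCDi in IGR37 (-1.70 ± 0.18, adjusted p = 2.2e-08), and TFDP1, the DNA-binding partner of the E2Fs, fell there too (-1.26 ± 0.10, adjusted p = 1.53e-10). RBL1, the pocket protein p107, fell with siSCD_1 in 501mel (-1.56 ± 0.19, adjusted p = 7.15e-06) and IGR37 (-1.53 ± 0.19, adjusted p = 1.15e-05). E2F3 rose with siSCD_1 in 501mel (0.93 ± 0.10, adjusted p = 2.57e-06). List medians were -0.12, -0.48, -0.02, -0.91, -0.16 and 0.05 for SCDi, siSCD_1 and siSCD_2, each in 501mel and then IGR37. The DREAM complex silences cell cycle genes in G0, and a list of 7 genes covered it, its MuvB core and their partners. Of these MYBL2, which is not a subunit of DREAM itself, fell in every comparison other than SCDi in 501mel (-1.0 to -1.59). The DREAM list as a whole had 0 rises and 0 falls with SCDi in 501mel, 2 and 3 in IGR37, 3 and 3 with siSCD_1 in 501mel, 1 and 4 in IGR37, 2 and 2 with siSCD_2 in 501mel and 2 and 3 in IGR37.

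Among CDK inhibitors other than p27, 2 of 6 rose and 1 fell with SCDi in IGR37, 2 rose and 2 fell with siSCD_1, and 4 rose and 0 fell with siSCD_2. The shares of all genes that rose and fell in IGR37 were 20.9% and 23.1% with SCDi, 16.7% and 19.4% with siSCD_1 and 23.2% and 22.7% with siSCD_2. CDKN1A, the p21 gene, rose in IGR37 by 1.44 ± 0.40 with SCDi (adjusted p = 0.00465), 2.26 ± 0.59 with siSCD_1 (adjusted p = 0.00666) and 2.07 ± 0.40 with siSCD_2 (adjusted p = 0.000139). For the last, siCTR was at 1.26, 2.34 and 2.29 log2 CPM (11 to 35 reads) and siSCD_2 at 4.33, 3.92 and 3.84. The DMSO libraries of CDKN1A, at 3.62, 3.49 and 3.84, were all above siCTR, the highest of them lying just under the lowest siSCD_2 library. CDKN2B, the CDK4 and CDK6 inhibitor p15, rose with siSCD_2 in IGR37 from 1.49, 1.21 and 1.09 log2 CPM to 4.57, 4.51 and 4.97 (3.42 ± 0.19, adjusted p = 2.53e-13), while its DMSO libraries stood at 3.60, 3.12 and 3.34. It also rose with siSCD_1 in both lines (1.54 ± 0.29, adjusted p = 0.000663 in IGR37; 0.83 ± 0.29, adjusted p = 0.0325 in 501mel). CDKN2A was at 1 to 20 reads a library in the first-table groups of IGR37, so its calls there (1.53 with SCDi, 1.17 with siSCD_2) rest on few reads. CDKN1C rose with siSCD_2 in both lines (0.93 in 501mel, 1.48 in IGR37), CDKN2C fell with SCDi (-0.73) and siSCD_1 (-0.68) in IGR37 and rose with siSCD_2 in 501mel (0.75), and CDKN2D fell with siSCD_1 in IGR37 (-0.37). In 501mel 0.232% of all genes rose and 0.0599% fell with SCDi, 20.9% and 22% with siSCD_1, and 18.3% and 19.5% with siSCD_2. The list there had 0 rises and 1 fall with SCDi, 1 and 0 with siSCD_1, and 2 and 1 with siSCD_2. Both falls were CDKN1A at 0 to 2 reads a library, for which no fold is given.

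Of 11 genes that activate CDKs or set the turnover of G1 regulators, 0 rose and 0 fell with SCDi in 501mel and 2 rose and 4 fell in IGR37. With siSCD_1, 2 of 10 measured rose and 5 fell in 501mel and 2 rose and 4 fell in IGR37, and with siSCD_2, 1 rose and 4 fell in 501mel and 4 rose and 2 fell in IGR37. With SCDi in IGR37, 20.9% of all genes rose and 23.1% fell, and in the siRNA comparisons 16.7% to 23.2% rose and 19.4% to 22.7% fell. The counts of upstream regulators given last are read against the same shares. SKP2, the ubiquitin ligase subunit that targets p27, fell with SCDi in IGR37 (-1.71 ± 0.10, adjusted p = 3.33e-13) and with siSCD_1 there (-1.53 ± 0.12, adjusted p = 9.51e-08). CDC25A, the phosphatase that activates CDK2, fell with SCDi in IGR37 (-1.84 ± 0.12, adjusted p = 3.77e-12), with siSCD_1 in both lines (-0.65 in 501mel, -1.09 in IGR37) and with siSCD_2 in 501mel (-0.61). With siSCD_2 in IGR37 CDC25A rose against siCTR (0.71 ± 0.12, adjusted p = 2.46e-05). Its siCTR libraries there, at 6.28, 6.32 and 6.05 log2 CPM, were all below DMSO at 7.17, 7.10 and 7.27. The siSCD_2 libraries, at 7.07, 6.63 and 7.06, were also all below DMSO. CKS1B, the cofactor with which SKP2 binds p27, fell with siSCD_1 and siSCD_2 in both lines by 0.86 to 1.04 on the log2 scale, and rose with SCDi in IGR37 (0.39 ± 0.08, adjusted p = 0.000377). FBXW7, the ligase subunit for cyclin E, rose with siSCD_2 in IGR37 (1.56 ± 0.13, adjusted p = 3.63e-10). Of 11 regulators upstream of G1 in melanoma, 6 rose and 3 fell with SCDi in IGR37 and 6 and 3 with siSCD_1 in 501mel, and JUN, which acts on the CCND1 promoter, rose with SCDi in IGR37 by 3.47 ± 0.12 (adjusted p = 2.17e-17). In the other comparisons of that list 0 rose and 0 fell (SCDi in 501mel), 3 and 2 (siSCD_1 in IGR37), 2 and 2 (siSCD_2 in 501mel) and 4 and 2 (siSCD_2 in IGR37).

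Genes most like each member over the 6 changes were sought among 5700, by the smallest root mean square difference, as a description that shares libraries and controls. CDK4 had the closest neighbours, PLCB3 (0.07), CMTM7 (0.10) and AP1M1 (0.11). E2F1 had PTTG1, MYBL2 and HMGA1 (0.45 to 0.47), CCNE2 had HELLS, ZWINT and LMNB1 (0.31 to 0.42), and CCNE1 had CBX2, ATP5G1 and SPRYD4 (0.24 to 0.34). CCND3 was nearest to TMEM121, CLPTM1 and SPNS1 (0.19 to 0.20), CDK2 to MRPL4, NF2 and PTGES2 (0.23 to 0.29) and CDKN1B to BCAR3, AP5Z1 and TPRG1L (0.18 to 0.24). CDK6 was nearest to PLAT, NRN1 and ITGB5 (0.28 to 0.35) and CCND1 to ZNF518B, SLC26A2 and FN1 (0.36 to 0.38). In siSCD_2 of IGR37, where CCND1 rose by 1.99, those 3 genes were at 1.78, 1.95 and 1.62, values that were part of their selection.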

How the data were processed

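The authors deposited log2 values per gene in 2 tables, normalised separately; per the submitters' processing notes, QuantSeq Forward reads were mapped with STAR (hg38) and edgeR did the normalisation. The deposited log2 values fit log2 CPM with a prior count of 0.25, and gave whole reads within 0.000258 of a read. At 0 reads a library allowed up to 0.385 to 1.18 CPM (3 counts, counting error only). Each table was fitted with limma 3.58.1 on the deposited values: 1 coefficient per group, all libraries of the table, eBayes with a variance trend, two-sided tests and Benjamini-Hochberg adjustment over all 13364 or 13066 genes, a call being an adjusted p under 0.05. The fit recovered known changes when tested on simulated data with the same relative spread for every gene and changes placed in well-covered genes. That setting does not cover the wide spread of the IGR37 siSCD_2 libraries or the low counts of CCNE2. Spike-ins (66 and 60) and 1 Mitf-FLAG row stayed out.

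The rule for named genes was all 10 members, SCD and MITF as checks, every measured CDK inhibitor, and at most 3 called genes of each pathway list by the smallest adjusted p. MKI67 and TOP2A are from the marker list, and PMEL, TSPAN31, INTS8 and ORAOV1 were added as overlapping genes. CDC6 was named after its value was seen. Members and lists were chosen with earlier results of these data known. Sequences come from RefSeq promoters (GRCh38.p14; 7 of 10 members matched) and GENCODE 29 transcripts (GRCh38), whose names matched 12604 and 12349 genes. Replicate numbers were not used as blocks: 5 of 17 pairs of equal number had a residual correlation above 0.1. The third IGR37 siSCD_2 column was placed by group only. Alternatives are listed in the closing section.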

Additional observations from a re-analysis of the deposited data

Results flagged for a closer look

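The effects below differed between the lines by the test of the difference itself, the log2 change in IGR37 minus that in 501mel, with limma's SE and an adjusted p under 0.05 over all genes. With SCDi, CCNE2 differed by -2.26, CCNE1 by -1.65, CCND3 by -1.32, E2F1 by -1.17, CDK6 by -1.07 (SE 0.15, adjusted p = 7.84e-06), CDK2 by -0.91 (SE 0.17, adjusted p = 0.000194) and CDK4 by -0.47 (SE 0.13, adjusted p = 0.00924). All 7 of these changes were lower in IGR37 than in 501mel, and that of CDKN1B was higher, by 0.51 (SE 0.12, adjusted p = 0.0023).

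With siSCD_1, CDKN1B differed by 1.01, CDK2 by 0.95 (SE 0.18, adjusted p = 0.00219), CCND1 by 0.69 (SE 0.15, adjusted p = 0.00463) and CCNE1 by 0.68 (SE 0.21, adjusted p = 0.0317). RB1 differed by -0.82 (SE 0.20, adjusted p = 0.0105) and CDK6 by -1.25. The CCNE1 difference was not called with no variance trend (adjusted p = 0.0759), with voom weights (0.0622) or without any 1 of 5 libraries (501mel siCTR_1 replicate 1 and siSCD_1 replicate 3, IGR37 siCTR_1 replicates 1 and 2 and siSCD_1 replicate 2; adjusted p 0.0588 to 0.09). That of RB1 was not called with no variance trend (adjusted p = 0.051). For CDK2 and CCNE1 the positive value means a smaller fall in IGR37 than in 501mel.

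With siSCD_2, CCND1 differed by 2.53, CDK6 by 1.99 and CDKN1B by 1.52, and E2F1 by -0.75 (SE 0.19, adjusted p = 0.00496), CDK2 by -0.73 (SE 0.17, adjusted p = 0.00271) and CCND3 by -0.38 (SE 0.12, adjusted p = 0.02). The CCND3 difference was not called with only the groups compared (adjusted p = 0.0723) or without 501mel siCTR replicate 2, 501mel siSCD_2 replicate 1 or IGR37 siCTR replicate 2 (adjusted p 0.0504 to 0.0579). CCND1 and CDK6 moved in opposite directions in the lines. The IGR37 siCTR libraries against which these values are taken stood 1.26, 1.38 and 1.05 below DMSO for CCND1, CDK6 and CDKN1B. For CDK2 the siCTR libraries were all above DMSO in IGR37 (by 0.47) and all below it in 501mel (by 0.49). For E2F1 they were likewise above in IGR37 (0.21) and below in 501mel (0.26). Measured from DMSO, siSCD_2 was lower by 1.18 in IGR37 and 1.42 in 501mel for CDK2, and by 2.12 and 1.84 for E2F1. For CDK2 the fall from DMSO was thus larger in 501mel. The part of these control levels in the differences was not tested. CDK2 differed with the opposite sign for siSCD_1 and siSCD_2, in tables normalised separately.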

How the results depend on the processing

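The alternatives were no variance trend, only the groups compared, a stricter filter (above 2 log2 CPM in 3 libraries), a pseudocount of 1, quantile normalisation, median centring, voom weights on recovered reads, a replicate block, and leaving out each library in turn. Of the 60 changes of a member in a treated against control comparison, 39 were called. Over 480 values from alternatives other than leaving out a library, 471 kept direction and call, 4 lost the call and 3 gained it, and over 360 values with a library left out, 342 kept both, 10 lost the call and 1 gained it. Of the 40 differences between the lines, 28 were called. Of 310 values from other alternatives 291 kept both, 6 lost the call (CCNE1 and RB1 with siSCD_1, CCND3 with siSCD_2) and 12 gained it (CCND1 with SCDi, CCNE2 and CCND3 with siSCD_1, CDK4 and CCNE1 with siSCD_2). Of 420 with a library left out 396 kept both, 12 lost the call (CCNE1 with siSCD_1, CCND3 with siSCD_2, CCNE2 under DMSO) and 10 gained it (CCNE2 and CDK4 with siSCD_1, CDK4 and CCNE1 with siSCD_2). No called change or difference turned direction. Those that did were never called: CDKN1B with siSCD_1 in 501mel under median centring (-0.042), CCNE1 with siSCD_2 in IGR37 under the replicate block (0.013) and CCND3 between the lines under quantile normalisation (0.014). With a library left out, CCNE2 in 501mel ran from -0.53 to 0.15 with SCDi and from -0.31 to 0.19 with siSCD_1, CDKN1B with SCDi in 501mel from -0.039 to 0.060, RB1 from -0.15 to 0.013 for siSCD_2 between the lines and from -0.026 to 0.16 under DMSO.

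The count of called members moved by over 1.5 times once, for siSCD_2 in 501mel, from 8 to 5 with only the groups compared, a fit with fewer libraries, where CCND1, CDK4 and RB1 missed the threshold. The siSCD_1 difference between the lines went from 6 to 4 with no variance trend. With a library left out, the counts ran from 6 to 8 for siSCD_2 in 501mel, 8 to 9 for SCDi in IGR37, 6 to 7 and 7 to 8 for siSCD_1 and siSCD_2 in IGR37, 5 to 8 for either siRNA between the lines and 7 to 8 under DMSO. They stayed at 0 for SCDi and 8 for siSCD_1 in 501mel, and at 8 for SCDi between the lines. Over all genes, SCDi in 501mel called 39, and 8 with only the groups compared, and the siSCD_2 difference between the lines 2819 and 1821.

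With the replicate block the members called were 0, 8 and 8 in 501mel and 9, 6 and 8 in IGR37 for SCDi, siSCD_1 and siSCD_2, and 8, 5 and 6 between the lines. The block left out the third IGR37 siSCD_2 library, so its siSCD_2 values there also rest on fewer libraries. Between the lines, CCNE1 with siSCD_1 (adjusted p = 0.0624) and CCND3 with siSCD_2 (adjusted p = 0.11) were then not called, and CCNE1 with siSCD_2 was (0.71, adjusted p = 0.0179). The numbers were not taken to pair the libraries, as 5 of 17 residual correlations were above 0.1. The highest, 0.252 and 0.18, were for SCDi against DMSO in 501mel, and pairing there is not excluded. CCNE2, with 10 to 102 reads a library, is the member whose values depth limits most.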
